A study of Homo sapiens with 4 samples.

Results

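Metallothioneins are small cytosolic proteins made very largely of cysteine and of residues that lack aromatic rings, and their cysteine thiolates bind zinc, copper and cadmium in clusters. Their genes are induced by metals through the zinc-sensing transcription factor MTF1, which binds short metal response elements near the start site, and also by glucocorticoids, oxidative stress and interferons. In the intestinal epithelium they buffer zinc and copper taken up from the gut lumen. The 6 genes described here, MT1E, MT1F, MT1G, MT1M, MT1X and MT2A, were chosen by symbol out of 27685 genes, by summing every deposited transcript that carries each symbol's gene ID. The chosen genes are isoforms of the MT1 and MT2 classes and lie in 1 cluster on chromosome 16.

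RNA-seq was performed on HT-29, a human colorectal adenocarcinoma line used as a model of colonic epithelium. HT-29 cells carrying a control vector (labelled Mock or Control, genotype WT) were compared with HT-29 cells that overexpress TRIM40, an E3 ubiquitin ligase of the tripartite motif family, with an N-terminal Myc tag (Myc-TRIM40). Neither group was treated, and both were stable lines, made by retroviral transduction and puromycin selection according to the study's methods. Experiments 1 and 2 each gave 1 library per condition, so there were 2 libraries per condition and 4 in all, and nothing in the labels says whether a line was 1 clone.

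TRIM40 itself was read 0 times in both Control libraries, while the Myc-TRIM40 libraries held 272646 (experiment 1) and 110665 (experiment 2) of its reads. Library totals lay between 60954602 and 67424698 reads. The summed FPKM (fragments scaled to transcript length and library size) of 9 colon epithelial markers lay between 6827 and 9401. Most of it came from the keratins KRT8 and KRT18, at 3355 and 2391 FPKM in the Control library of experiment 1. The intestinal transcription factors CDX1 and CDX2 were low, at no more than 0.414 and 1.39. The summed FPKM of 8 markers of other cell types lay between 6.24 and 12.96. CD68, a lysosomal protein not limited to macrophages, made up most of it, and COL1A2, COL3A1 and CD3E were at 0 reads in each library. The Control library of experiment 2 stood apart by transcript length. Over genes that averaged 1 FPKM or more, its log2 ratio of FPKM + 1 to the Control library of experiment 1 had a median of 0.55 for transcripts of 300 to 599 bases and of -0.46 for transcripts of 4000 bases and over. The same medians between the 2 Myc-TRIM40 libraries were 0.02 and -0.10. The metallothionein transcripts are among the short ones, at 402 to 506 bases in the deposited files, so the members' values are given per experiment and beside genes of like length as well as jointly.

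The coding sequences show how alike the members are, which bears on how reads could be assigned to them. The 3 members with the most reads are printed below from GENCODE release 29, with the TGC and TGT codons, which encode cysteine, in capitals.
MT1E: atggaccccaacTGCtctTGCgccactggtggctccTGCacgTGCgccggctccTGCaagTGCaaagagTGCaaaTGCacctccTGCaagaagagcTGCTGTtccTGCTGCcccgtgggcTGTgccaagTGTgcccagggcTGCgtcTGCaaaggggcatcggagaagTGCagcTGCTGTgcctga
MT2A: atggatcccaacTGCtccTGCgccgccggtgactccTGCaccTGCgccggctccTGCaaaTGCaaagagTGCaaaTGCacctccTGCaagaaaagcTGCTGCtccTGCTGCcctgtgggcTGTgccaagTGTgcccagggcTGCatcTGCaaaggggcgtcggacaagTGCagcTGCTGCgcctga
MT1X: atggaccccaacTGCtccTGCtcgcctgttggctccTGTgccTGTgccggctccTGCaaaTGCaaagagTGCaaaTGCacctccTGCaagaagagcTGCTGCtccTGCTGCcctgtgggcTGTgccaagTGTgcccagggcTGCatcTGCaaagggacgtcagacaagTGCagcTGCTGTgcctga
In each of the 6 members 20 of 61 codons, or 32.8%, encode cysteine. The coding sequences of all 6 are 186 bases long, and identity between pairs ranged from 88.7% (MT1F and MT1X) to 95.2% (MT1G and MT2A). The transcripts are less alike than the coding parts. Of all windows of 75 bases along the GENCODE transcript, 0% of those of MT2A and MT1F, 0.13% of those of MT1M and 0.79% of those of MT1E occur unchanged in a transcript of another gene, against 6.63% for MT1G and 31.6% for MT1X. For MT1X the other genes were AC026461.1, MT1G and MT1XP1, and with windows of 100 bases AC026461.1 alone. Values of MT1X and MT1G are therefore the least certain among the members with respect to sequence shared with other genes. The read length behind the deposited values is not given in the sources used here. GENCODE gives MT1E 704 bases and MT2A 786 bases, longer than the 506 and 419 bases behind the deposited FPKM.

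Promoter sequences from RefSeq (GRCh38.p14) were at hand for 2 of the 6 members, MT2A and MT1X, and are printed for the 250 bases before the start site because metal response elements lie there. Capitals mark the core of that element, searched on both strands as TGCACNC and TGCGCNC, with overlapping matches counted separately.
MT2A, chr16:56608334-56608583, plus strand: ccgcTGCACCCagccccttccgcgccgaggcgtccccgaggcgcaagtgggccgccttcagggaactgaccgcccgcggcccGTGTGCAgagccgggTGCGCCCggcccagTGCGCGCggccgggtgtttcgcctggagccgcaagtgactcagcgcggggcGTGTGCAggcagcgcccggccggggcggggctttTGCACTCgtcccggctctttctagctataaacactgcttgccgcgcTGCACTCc
MT1X, chr16:56682220-56682469, plus strand: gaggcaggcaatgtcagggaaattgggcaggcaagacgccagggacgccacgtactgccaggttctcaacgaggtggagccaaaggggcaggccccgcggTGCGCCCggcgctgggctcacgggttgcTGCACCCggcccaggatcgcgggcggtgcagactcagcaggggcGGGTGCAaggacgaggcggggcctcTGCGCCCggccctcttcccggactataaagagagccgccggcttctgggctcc
MT2A held 7 matches and MT1X held 4. Of other metallothionein genes, MT1H held 8 and MT1B held 3, and each had 2 reads or fewer in any library. Across 35116 promoter windows of the same length, 24.8% held at least 1 match, 0.370% held at least 4 and 0.0313% held at least 7. A TATAAA motif, present in 6.80% of windows, began 29 bases before the start of MT2A and 30 bases before that of MT1X. These matches describe the sequence and were not measured as binding sites.

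Metallothionein RNA in HT-29 cells came almost wholly from MT1E and MT2A, and it did not differ between Myc-TRIM40 and Control cells beyond the spread between experiments. None of the 5 members with enough reads to be tested was called. Since only 0.0605% of the 14868 genes tested were called, that count says little of the members. The 3 most abundant members were lower in Myc-TRIM40 cells in experiment 2 and not in experiment 1. MT1E (Entrez gene 4493, hg19 chromosome 16 from 56659585 to 56661024), an MT1 isoform, had 115.3 FPKM (Control) and 117.8 FPKM (Myc-TRIM40) in experiment 1 and 271.2 and 162.1 FPKM in experiment 2. The Control library of experiment 2 was the highest, and both Myc-TRIM40 libraries lay between the 2 Control libraries. MT2A (Entrez gene 4502, from 56642478 to 56643409), the single MT2 isoform and usually the main metallothionein of human cells, had 47.1 and 52.7 FPKM in experiment 1 and 83.5 and 47.6 FPKM in experiment 2. Here too the Control library of experiment 2 was the highest, and the other 3 libraries were close to each other. MT1X (Entrez gene 4501, from 56716382 to 56718108), another MT1 isoform, had 5.66 and 7.51 FPKM in experiment 1 and 12.4 and 7.11 FPKM in experiment 2. Both Myc-TRIM40 libraries again lay between the Control libraries. MT1X is also in a gene list that the study drew from its RNA-seq data, so its values are not independent of that choice. The study describes that list as genes significant in common to its 2 RNA-seq experiments. In the deposited files MT1X went opposite ways, with log2 ratios of FPKM + 1 of 0.35 in experiment 1 and -0.72 in experiment 2. The FPKM of MT1X in that list differ from the deposited ones in the first experiment, so the values given here describe the deposited files, and whether both come from the same libraries is not known.

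**Figure D1:**
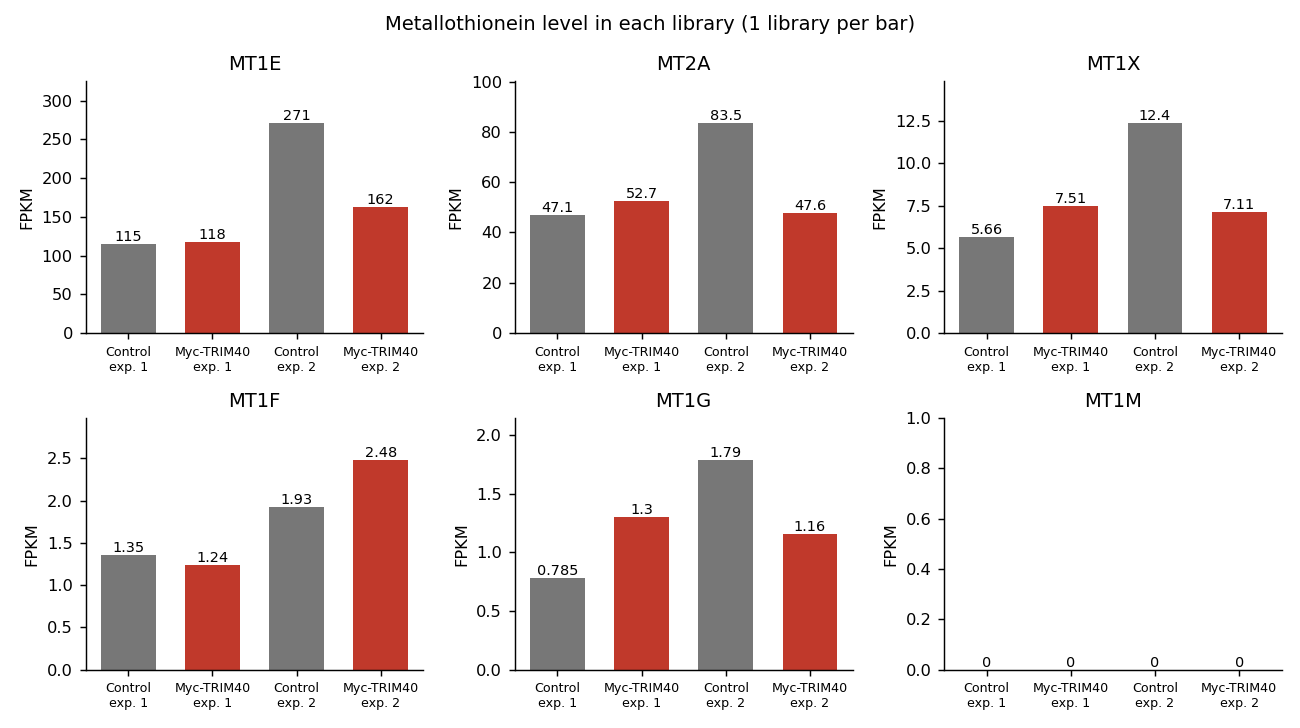
FPKM of each metallothionein gene in the 4 libraries, 1 library per bar, on linear axes that start at 0 and differ between panels. MT1E, MT2A and MT1X are highest in the Control library of experiment 2, at 271.2, 83.5 and 12.4 FPKM, and MT1M is at 0 in all 4 libraries.

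MT1F and MT1G were near the limit of what these libraries measure. MT1F (Entrez gene 4494, from 56691855 to 56693215) was counted 38 (Control) and 35 (Myc-TRIM40) times in experiment 1 and 60 and 72 times in experiment 2, or between 1.24 and 2.48 FPKM. Its groups overlapped. Among the tested members it alone had more reads with Myc-TRIM40 than with Control in experiment 2. MT1G (Entrez gene 4495, from 56700647 to 56701977) was counted 21 (Control) and 34 (Myc-TRIM40) times in experiment 1 and 51 and 31 times in experiment 2, or between 0.785 and 1.79 FPKM, with the Myc-TRIM40 libraries between the Control libraries in FPKM. MT1M (Entrez gene 4499, from 56666534 to 56667898), which the same files list at 440 bases, had 0 reads in each library. A count of 0 allows up to 3 reads, which is between 0.0445 and 0.0492 CPM (counts scaled to library size) here, for counting error only.

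Per kilobase, the order of levels was the same for the upper members in every library, MT1E above MT2A above MT1X. The lowest MT1E value (115.3 FPKM) was above the highest MT2A value (83.5 FPKM), and the lowest MT2A value (47.1 FPKM) was above the highest MT1X value (12.4 FPKM). MT1F and MT1G exchanged places between libraries and did not differ beyond their spread. MT1E made up between 65.2% and 73.5% of the summed FPKM of the 6 genes and MT2A between 21.6% and 29.2%. Ranked among all genes by FPKM, MT1E stood between places 285 and 610 and MT2A between places 1066 and 1766. The summed FPKM of the 6 genes was 170.1 in Control and 180.5 in Myc-TRIM40 cells of experiment 1, and 370.8 and 220.5 in those of experiment 2.

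With the experiment as a block, edgeR's quasi-likelihood test on summed reads called 0 of the 5 tested members at an adjusted p under 0.05, while 0.0605% of the 14868 genes tested were called. At an unadjusted p under 0.05 it also called 0 of the 5, against 4.54% of all genes, and DESeq2 called 0 at an adjusted p under 0.05, against 0.363%. For MT1E the log2 fold change was -0.44 (standard error 0.26, edgeR with Benjamini-Hochberg adjustment, adjusted p = 0.888). For MT2A it was -0.41 (standard error 0.28, the same edgeR test, adjusted p = 0.888), and for MT1X -0.29 (standard error 0.36, adjusted p = 0.904). The values of MT1F and MT1G were 0.06 and -0.06, with standard errors of 0.45 and 0.58. The median log2 fold change of the 5 members was -0.29, and that of all genes tested was 0.04.

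The direction in FPKM differed between the experiments for each tested member. On the log2 scale of FPKM + 1, which understates the change of low genes, Myc-TRIM40 minus Control was 0.03 for MT1E, 0.16 for MT2A, 0.35 for MT1X, 0.37 for MT1G and -0.07 for MT1F in experiment 1. In experiment 2 the values were -0.74 for MT1E, -0.80 for MT2A, -0.72 for MT1X, -0.37 for MT1G and 0.25 for MT1F. Thus 4 of the 5 were higher in experiment 1 and lower in experiment 2, as were 18.7% of the 11801 genes that averaged 1 FPKM or more. For MT1E the direction in experiment 1 depends on the scaling, since its ratio of TMM-normalized reads was 0.997. On the scale of FPKM + 1, no member reached 1.5-fold in either direction in experiment 1. Of the genes that averaged 1 FPKM or more, 3.01% were at least 1.5-fold higher there and 0.822% at least 1.5-fold lower. In experiment 2 MT1E, MT2A and MT1X were at least 1.5-fold lower, as were 3.42% of the genes at that level. No member was at least 1.5-fold higher, against 10.7% of them. None of the 6 changed 1.5-fold in the same direction in both experiments, against 0.311% of all 27685 genes. That share also counts genes below 1 FPKM, unlike the others here.

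Counting error alone does not cover the differences of the abundant members in experiment 2. The ratio of TMM-normalized reads, Myc-TRIM40 over Control, was 0.548 for MT1E (95% exact interval 0.530 to 0.567), 0.522 for MT2A (0.488 to 0.559) and 0.527 for MT1X (0.438 to 0.631). In experiment 1 the ratios were 0.997 for MT1E (0.952 to 1.04), 1.09 for MT2A (1.01 to 1.18) and 1.29 for MT1X (1.03 to 1.61). The intervals of the experiments do not overlap for these 3 genes. For MT1F the intervals were 0.550 to 1.46 and 0.832 to 1.70, and a difference between conditions was not detectable at this depth. MT1G had a ratio of 1.58 (0.889 to 2.86) in experiment 1 and of 0.602 (0.373 to 0.960) in experiment 2, both past 1.5-fold on this scale, which has no pseudocount. Each interval compares 2 libraries, covers counting error only and treats reads as independent molecules, so it says nothing of how far cultures of 1 condition vary.

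**Figure D2:**
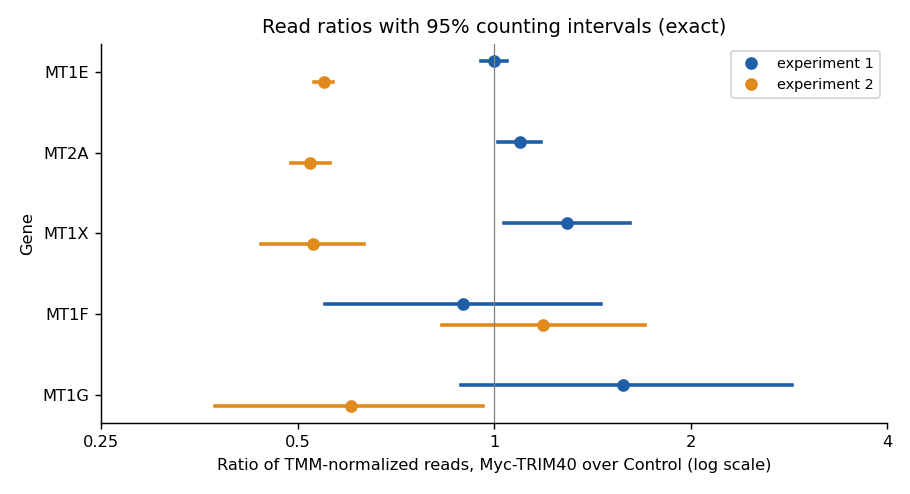
Ratio of TMM-normalized reads in Myc-TRIM40 over Control for the 5 members with reads, in experiment 1 (blue) and experiment 2 (orange), on a log axis. Points are ratios and lines are 95% exact counting intervals. MT1E, MT2A and MT1X lie at or above 0.997 in experiment 1 and between 0.522 and 0.548 in experiment 2.

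In FPKM + 1, the 2 Control libraries differed from each other by at least as much as the conditions did within experiment 2. For MT2A this was narrow, at 0.81 between the Control libraries against -0.80 between conditions, and depended on the scaling. The log2 ratio of FPKM + 1, experiment 2 over experiment 1, was 1.23 for MT1E, 1.01 for MT1X and 0.81 for MT2A in Control cells. Between the Myc-TRIM40 libraries the same ratio was 0.46 for MT1E, -0.07 for MT1X and -0.14 for MT2A. Of the 5 members that averaged 1 FPKM or more, 4 were at least 1.5-fold higher in the Control library of experiment 2 than in that of experiment 1. So were 14% of all genes at that level and 45.4% of those with transcripts of 300 to 599 bases. For none of the 5 did the 2 conditions separate without overlap. Over all genes at that level, 6.74% had both Control libraries above both Myc-TRIM40 libraries and 12.8% the opposite.

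Lower values in experiment 2 were shared by transcripts of the same length. In that experiment, among genes that averaged 1 FPKM or more, the median log2 ratio of FPKM + 1 was -0.56 for the 185 genes of 300 to 599 bases and -0.47 for the 606 genes of 600 to 999 bases. It was 0.09 for 2000 to 3999 bases and 0.40 for 4000 bases and over. In experiment 1 the medians of these classes lay between -0.03 and 0.03. The 296 genes under 300 bases did not follow this order, with a median of 0.15 in experiment 2 and -0.15 in experiment 1. Of the 185 genes of 300 to 599 bases, which include the 5 members with reads, 44.9% were at least 1.5-fold lower in Myc-TRIM40 cells in experiment 2, against 0.541% in experiment 1. Within that class, 14.6% of genes had a lower ratio than MT1E, 18.4% a lower ratio than MT1X and 6.49% a lower ratio than MT2A in experiment 2. With the median of the length class subtracted, a step added after seeing the data, the ratios of experiment 2 were -0.18 for MT1E, -0.16 for MT1X and -0.24 for MT2A, and those of experiment 1 were 0.06, 0.39 and 0.19. None of the 3 then reached 1.5-fold. The part of transcript length in the metallothionein values was not tested beyond these comparisons. MT1F and MT1G are not set against the class here, because at levels near 1 FPKM the added 1 draws their ratios toward 0.

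**Figure D3:**
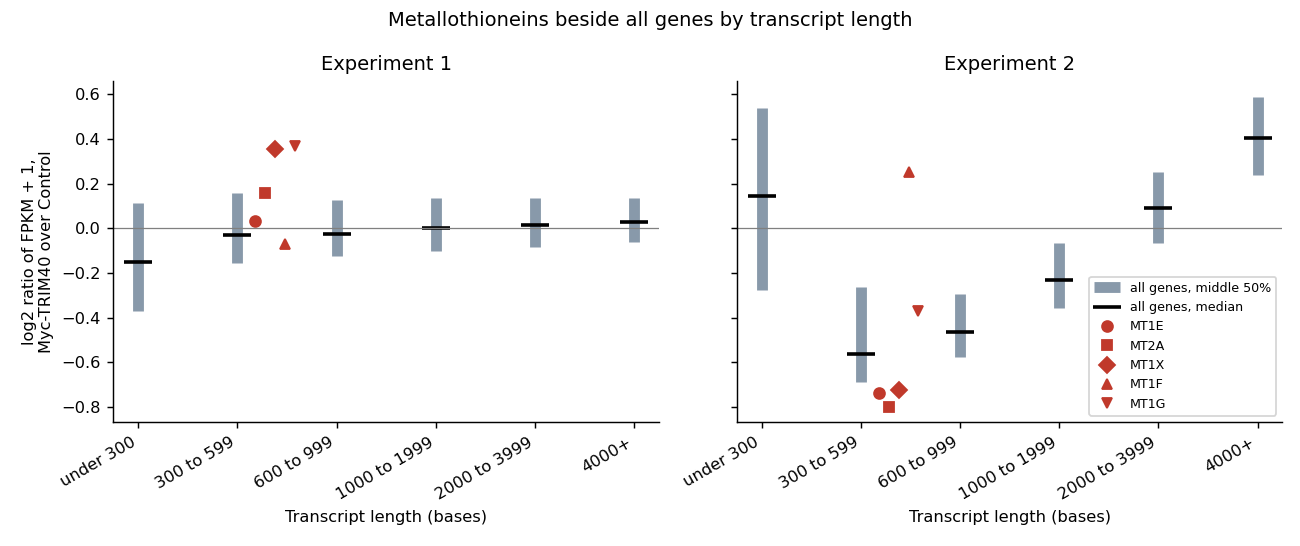
Log2 ratio of FPKM + 1, Myc-TRIM40 over Control, by transcript length in each experiment, for genes that averaged 1 FPKM or more. Black marks are medians over all genes of a length class, grey bars span the middle 50% and red symbols are metallothioneins, drawn beside their class of 300 to 599 bases. In experiment 2 the medians run from -0.56 at 300 to 599 bases to 0.40 at 4000 bases and over, with the genes under 300 bases apart at 0.15. There MT1E, MT1X and MT2A lie at -0.74, -0.72 and -0.80, while MT1G and MT1F lie above their class median at -0.37 and 0.25.

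Among the 10 other metallothionein genes of the files, 0 of the 2 tested were called, against 0.0605% of all genes tested. MT1A, an MT1 isoform next to the members, was the most abundant of them, counted 51 (Control) and 48 (Myc-TRIM40) times in experiment 1 and 99 and 61 times in experiment 2. MTF1, the zinc-sensing activator of these genes, had 4.78 and 5.67 FPKM in experiment 1 and 1.93 and 3.86 FPKM in experiment 2, for Control and Myc-TRIM40. The Control library of experiment 2 was the lowest, the opposite of MT1E and MT2A. Its log2 fold change was 0.54 (standard error 0.24, edgeR with Benjamini-Hochberg adjustment, adjusted p = 0.888). MTF1 is listed with a transcript of 7972 bases, whose length class had a median of 0.40 in experiment 2, and its ratio there was 0.73.

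Zinc transporters held no called gene. None of the 7 tested zinc exporters and none of the 12 tested zinc importers was called, against 0.0605% of all genes tested. SLC30A1, the plasma membrane zinc exporter that MTF1 also induces, had 8.03 and 9.73 FPKM in experiment 1 and 7.33 and 7.53 FPKM in experiment 2, and its log2 fold change was 0.08 (standard error 0.22, adjusted p = 0.965 in the same edgeR test). Its highest and lowest libraries were closer to each other than those of MT1E, MT2A or MT1X. The most abundant exporter was SLC30A9, with FPKM values between 23.5 and 32.7, and the most abundant importer was SLC39A7, which releases zinc from the endoplasmic reticulum, with values between 92.5 and 112.3. The median log2 fold change was 0.08 for the exporters and -0.03 for the importers.

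None of the 12 copper-handling genes was called, against 0.0605% of all genes tested, and their median log2 fold change was -0.14. SOD1, the copper-zinc superoxide dismutase and the gene with the highest mean FPKM over the 4 libraries, had 160.2 and 170.1 FPKM in experiment 1 and 224.4 and 159.5 FPKM in experiment 2. Its ratio in experiment 2, -0.49, lay close to the median of its length class, -0.47. The copper chaperones ATOX1 and COX17, chosen after their values were seen, are as short as the metallothioneins, at 489 and 423 bases. COX17 had 119.6 and 127.3 FPKM in experiment 1 and 269.6 and 175.7 FPKM in experiment 2, the same order of libraries as MT1E. In experiment 2 the ratios of ATOX1 and COX17 were -0.65 and -0.61, against -0.56 for their length class. The long transcripts of the copper-exporting ATPases ATP7A and ATP7B, chosen in the same way, had ratios of 0.55 and 0.54 there, against 0.40 for theirs. COX11, of 2006 bases and also chosen after its values were seen, lay further from its length class, at 0.51 against 0.09.

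The glucocorticoid-induced genes and the neighbours of the cluster on chromosome 16 also held no called gene, against 0.0605% of all genes tested. Of the 8 glucocorticoid-induced genes tested, the most abundant was ZFP36, which destabilizes AU-rich mRNAs, with 30.8 and 42.9 FPKM in experiment 1 and 25.2 and 32.0 FPKM in experiment 2. The median log2 fold change of these 8 was 0.24. Of the 6 tested neighbours, the most abundant was NUDT21, a subunit of the cleavage factor that selects poly(A) sites, with FPKM values between 41.2 and 61.6. The median log2 fold change of the neighbours was 0.02.

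**Figure D4:**
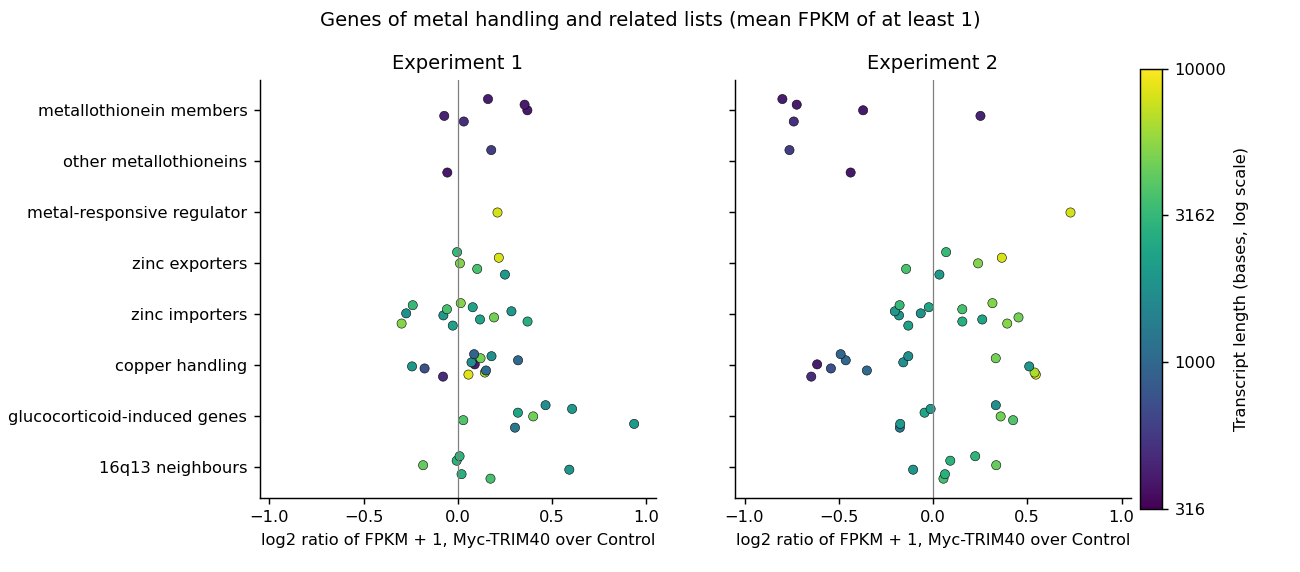
Log2 ratio of FPKM + 1, Myc-TRIM40 over Control, for each gene of the lists that averaged 1 FPKM or more, in experiments 1 and 2. Each point is a gene, and its colour gives transcript length on a log scale. In experiment 2 short transcripts such as MT2A (-0.80) and ATOX1 (-0.65) lie to the left and long ones such as MTF1 (0.73) to the right, while the short MT1F lies at 0.25.

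The 5 genes whose profile over the 4 libraries lay nearest to the mean profile of the tested members were SFTA2, AKIP1, COMMD3, PAIP2 and FDXR. The measure was the Euclidean distance between centred log2 values of TMM-normalized CPM + 1, and it ranged from 0.0275 for SFTA2 to 0.0465 for FDXR. The tested members themselves lay at 0.186 (MT1X) to 0.499 (MT1E) from their mean. SFTA2, at 454 bases the shortest of the 5, had 32.6 and 36.0 FPKM in experiment 1 and 54.5 and 39.4 FPKM in experiment 2. With 4 libraries, such a likeness describes which libraries were high and carries no test.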

How the data were processed

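RNA-seq of 4 HT-29 libraries was used. The authors deposited, per RefSeq transcript, an estimated count of reads as whole numbers that were not normalized, the FPKM and, for experiment 2, the TPM. The other deposited values used were transcript lengths, per the file headers. The submitters' processing notes name HISAT2 2.1.0, StringTie 1.3.4d and hg19, without roles. Libraries were made with a stranded mRNA kit, and filters are not given in the sources used here. The 63714 transcripts were summed to 27685 genes. TPM of experiment 1 was computed from FPKM.

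Genes were tested with edgeR 4.0.16 in R 4.3.3 (quasi-likelihood, TMM, filterByExpr, Benjamini-Hochberg) with the experiment as a block. That test prints no standard error. Those given here are the absolute log2 fold change divided by the square root of its F statistic. Libraries were paired because each file holds 1 library per condition of 1 experiment and the labels number them alike. As a check, deviations from the mean of a condition correlated at 0.59 between same-numbered libraries over 14868 genes. Nothing in the labels says that replicates are separate cultures, and the study calls them independent experiments. Alternatives were no block, DESeq2 1.42.0, upper-quartile factors, no filter, limma 3.58.1 on log2(FPKM + 1), the top transcript of each gene, each experiment left out, a pseudocount of 0.1, TPM, median centring, CPM, a fold threshold of 2 and a mean FPKM of at least 1. Length-class medians and the sum of all metallothionein genes were added after seeing the data. The test was checked on simulated data that held no difference between experiments and no effect of transcript length, so the check does not cover these.

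Genes named in the text were the members, MTF1, SLC30A1, TRIM40, genes of the lists that were called or changed 1.5-fold in common, the most abundant gene of each list (by mean FPKM) and the 5 nearest profiles. Cell type markers and genes said to be chosen after their values were seen are named besides, as are the other metallothionein genes. The members and lists were chosen with earlier results of these data known. Counting intervals are exact (Clopper-Pearson) at 95%. Sequences came from RefSeq and GENCODE release 29, matched by symbol or RefSeq accession, and positions of genes are those of the files. Fewer cells and less RNA per cell cannot be told apart in bulk RNA. Python 3.11.15 with numpy 2.4.6, scipy 1.17.1 and pandas 2.3.3 was used for the rest.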

Additional observations from a re-analysis of the deposited data

Results flagged for a closer look

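The 5 members with reads went opposite ways in FPKM in the 2 experiments, which is what marked them for a closer look. The difference between the experiments was not tested, since each has 1 library per condition. On the log2 scale of FPKM + 1, Myc-TRIM40 over Control, the values in experiments 1 and 2 were 0.031 and -0.74 for MT1E, 0.16 and -0.80 for MT2A, and 0.35 and -0.72 for MT1X. They were 0.37 and -0.37 for MT1G and -0.073 and 0.25 for MT1F, both of which rest on 72 reads or fewer per library. The median of all genes of 300 to 599 bases was -0.03 in experiment 1 and -0.56 in experiment 2. The part of transcript length in the metallothionein values was not tested beyond this comparison.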

How the results depend on the processing

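The number of metallothioneins called, 0 higher and 0 lower in edgeR, was also 0 and 0 with no replicate block and under the other 5 fits, and the lowest unadjusted p of any member over these fits was 0.0939 (MT1E, DESeq2). Adjusted p ranged from 0.804 to 1.00 for MT1E and MT2A and from 0.866 to 1.00 for MT1X. No tested member changed direction between those fits, but MT1G moved from -0.06 to -0.70 with the top transcript only. With experiment 1 alone the log2 ratio of TMM-normalized reads was -0.0041 for MT1E, 0.13 for MT2A, 0.37 for MT1X, 0.64 for MT1G and -0.16 for MT1F. With experiment 2 alone it was -0.87, -0.94, -0.92, -0.72 and 0.25, so the direction of MT2A, MT1X, MT1G and MT1F depends on the experiment. Over all genes, the 6 higher and 3 lower calls became 0 and 0 with no replicate block (128 and 25 at an unadjusted p under 0.05), 0 and 0 with no filter (343 and 104), 0 and 0 with the top transcript only (222 and 113), 3 and 0 with limma (587 and 134) and 45 and 9 with DESeq2. The causes were not tested. Of metallothioneins changed 1.5-fold in common there were 0 in each direction, and with only 1 experiment counted between 0 and 3 were lower. The mean log2 ratio of the summed level, -0.33, ranged from -0.75 to 0.09 with an experiment left out, so its direction rests on experiment 2, and it was -0.20 with TPM and -0.03 less the length-class median. In experiment 2 alone it was -0.75, against -0.51 with TPM and -0.19 less the length-class median. With 2 libraries per condition, leaving out an experiment leaves no test. Precision is limited by the number of experiments for MT1E and MT2A, and by reads for MT1F and MT1G.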

Other observations

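The files hold 2 transcripts of MT1G that differ by 3 bases in length. The 402-base transcript was counted 14 (Control) and 18 (Myc-TRIM40) times in experiment 1 and 43 and 13 times in experiment 2. The 405-base transcript was counted 7 and 16 times in experiment 1 and 8 and 18 times in experiment 2. The division between transcripts this alike is uncertain, and these values were picked after they were seen.

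MT3, a metallothionein best known from brain, was detected in HT-29 cells at 33 and 41 reads (experiment 1) and 72 and 24 reads (experiment 2), and was also picked after its values were seen. The pseudogene MT1DP was counted 0 and 4 times in experiment 1 and 16 and 5 times in experiment 2. MT1B, MT1JP, MT1IP, MT1HL1 and MT4 had 0 reads in each library, and MT1H and MT1L had at most 5 reads in any library.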
